A study of Mus musculus with 4 samples.

Results

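The cells described here are bone marrow neutrophils that carry secondary granule transcripts and few or no transcripts of division genes. They were chosen by measured values, in droplet single-cell RNA sequencing of 4 mouse bone marrow libraries, among barcodes with 500 to 4000 detected genes and at most 15% of transcripts from mitochondrial genes. A transcript was counted once through its unique molecular identifier (UMI). A cell was a member when S100a8 and S100a9 made up at least 10% of its UMIs, when Camp, Ngp and Ltf made up at least 2%, and when Mki67, Top2a, Cdk1 and Birc5 together gave at most 1 UMI. This rule took 7087 of 31457 cells kept, or of 36942 barcodes in the files.

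Marrow came from femur and tibia of C57/B6 mice that the labels give as 12 month old, and red blood cells were depleted. The triple wild-type library (TWT) was IL6+/+, mDia1+/+, miR146a+/+, and the IL6 KO library was IL6-/-, mDia1+/+, miR146a+/+. The double knockout library (DKO) was IL6+/+, mDia1-/-, miR146a-/-, and the triple knockout library (TKO) was IL6-/-, mDia1-/-, miR146a-/-. The knockouts were constitutive, so every cell type of a mouse lacked the genes, and DKO mice serve the study as a model of myelodysplastic syndrome that passes into acute leukemia with age. Each genotype had 1 library, the sources used here do not say how many mice went into it, and no test of a genotype is possible. All intervals below are exact 95% intervals that cover counting error only.

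Neutrophils mature in the marrow through ordered stages. Dividing precursors fill primary (azurophil) granules with proteases such as proteinase 3, cells that are leaving division fill secondary (specific) granules with lactoferrin, cathelicidin and neutrophilic granule protein, and the last stages add gelatinase granules and the receptors needed for release into blood. mDia1, encoded by Diaph1, is a formin that nucleates unbranched actin filaments. miR-146a is a microRNA that damps Toll-like receptor signaling through Irak1 and Traf6, and IL-6 is a cytokine that acts through STAT3 and supports emergency granulopoiesis.

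The deleted microRNA is shown because its seed, bases 2 to 8 in capitals, decides which transcripts it pairs with. The sequence is that of RefSeq, on the minus strand of GRCm38.p6 at chr11:43374435-43374456.
mmu-miR-146a-5p: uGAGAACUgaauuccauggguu
The assay did not count this microRNA. Diaph1 was counted and checked the labels, with 207 CPM (counts of a gene per 1000000 UMIs summed over all members of the library) in TWT, 218 in IL6 KO, 8.14 in DKO and 12.2 in TKO. Il6 was not taken as such a check, since the assay tags the 3′ end of transcripts and the deleted stretch of the gene was not looked up here. Its level was 0 CPM in TWT, 5.55 in IL6 KO, 0.10 in DKO and 4.79 in TKO, higher in the libraries labelled IL6-/-.

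Sequence before the start of 3 genes of the rule is shown because their transcripts define the cells. C/EBP epsilon drives secondary granule genes, and capitals mark matches to the C/EBP letters TTGCNNAA, searched on both strands. The windows, from RefSeq on GRCm38.p6, were chr9:109849618-109849706 on the minus strand for Camp, chr9:110419597-110419746 on the plus strand for Ngp and chr9:111019121-111019270 on the plus strand for Ltf.
Camp: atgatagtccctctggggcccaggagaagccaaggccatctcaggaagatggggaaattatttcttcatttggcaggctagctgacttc
Ngp: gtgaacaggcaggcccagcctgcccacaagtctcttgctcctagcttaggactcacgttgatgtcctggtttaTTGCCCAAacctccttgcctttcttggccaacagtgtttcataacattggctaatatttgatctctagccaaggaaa
Ltf: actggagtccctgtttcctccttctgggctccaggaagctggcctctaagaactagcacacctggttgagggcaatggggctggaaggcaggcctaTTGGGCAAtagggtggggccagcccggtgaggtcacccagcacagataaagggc
Ngp and Ltf each held 1 match, and Camp, whose window has 89 bases rather than 150, held none. Among 27025 genes, 6.31% had the letters in a window of 150 bases before a RefSeq start. The windows shown instead end before the more upstream of the RefSeq and GENCODE starts of the gene. A match is a description of the letters and not evidence of binding.

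The label was checked against 8 markers of immature neutrophils, Ltf, Camp, Ngp, Ly6g, Cebpe, Lcn2, Fcnb and Chil3. All 8 stood at or above 50 CPM in every library, and Ly6g, the surface marker of mouse neutrophils, was detected in 95.6% of members in TWT, 97.0% in IL6 KO, 92.6% in DKO and 98.3% in TKO. Member cells had a median of 6951 UMIs in TWT, 6882 in IL6 KO, 8548 in DKO and 7006.5 in TKO. After each member was thinned to 3000 UMIs, the median number of detected genes was 866, 867, 862 and 884 in the same order. Pairs of libraries shared 19 to 36 barcodes, of which 0 to 3 were members in both. Xist, the transcript of the inactive X chromosome, stood at 186 CPM in IL6 KO and at 0.05 CPM or less in the others, so a difference of IL6 KO from any of them cannot be told apart from one of sex. Markers of other lineages moved with the DKO library. The summed level of 8 macrophage markers was 69.6 CPM in TWT, 40.3 in IL6 KO, 548 in DKO and 50.9 in TKO. That of 8 monocyte markers ranged from 839 to 1172 CPM with DKO highest, and Ly6c2 made up most of it in each library. Of these 8 markers, 1 stood at 50 CPM or more in TWT, 1 in IL6 KO, 4 in DKO and 1 in TKO. Members with at least 2 UMIs over 15 monocyte and macrophage markers, Apoe among them, made up 6.33%, 5.89%, 37.0% and 5.92% of members in the order TWT, IL6 KO, DKO and TKO. After thinning to 3000 UMIs the shares were 3.06%, 2.20%, 16.9% and 2.61%. T cells of the same libraries, thinned alike, reached 18.0%, 26.6%, 35.3% and 18.7%, so the share in members was below that in T cells in every library. The part of free transcripts and of monocytes in the DKO values was not tested.

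The first comparison was of abundance. Members made up 21.9% of kept cells in TWT (interval 20.9 to 22.9), 22.9% in IL6 KO (22 to 23.9), 22.5% in DKO (21.6 to 23.3) and 22.8% in TKO (21.9 to 23.8). The share in DKO was 1.03 times that in TWT, with an interval of 0.961 to 1.10. This ratio was 0.691 when members carrying monocyte or macrophage markers were left out. It was 1.66 when members carrying markers of other lineages were left out. The latter markers include hemoglobin genes, and 8 erythroid markers summed to 2321 CPM in TWT members and 286 in DKO members. The part of hemoglobin transcripts in the ratio of 1.66 was not tested. Equal shares thus hold for the rule as applied, and the direction of the ratio changed with these settings. The cells on either side of this stage were not alike in that respect. Neutrophils that passed the S100 limit but held Camp, Ngp and Ltf below 2% of UMIs, a later stage by the order given above, made up 23.8% of cells in TWT, 25.5% in IL6 KO, 7.66% in DKO and 22.3% in TKO. DKO thus held 0.322 times the TWT share (0.295 to 0.351). Cells of the same granule content with more than 1 UMI of the division genes made up 9.52%, 9.82%, 9.67% and 10.2% in the same order. There were 2.30 members per dividing immature cell in TWT, 2.34 in IL6 KO, 2.32 in DKO and 2.24 in TKO. Shares of one library sum to a whole, and all of them depend on what other cells the library captured.

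**Figure D1:**
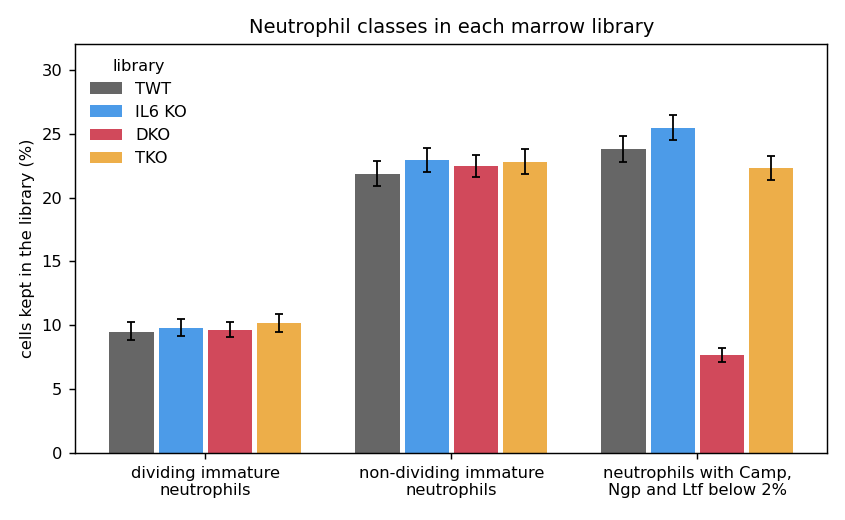
Share of kept cells (percent, y axis) for dividing immature neutrophils, non-dividing immature neutrophils and neutrophils with Camp, Ngp and Ltf below 2% of UMIs, in the 4 libraries, with exact 95% counting intervals. The non-dividing immature cells sit between 21.9% and 22.9% in every library, and the cells with less Camp, Ngp and Ltf fall to 7.66% in DKO. The DKO to TWT ratio of the former was 0.691 without members carrying monocyte or macrophage markers. It was 1.66 without those carrying markers of other lineages, hemoglobin genes among them.

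Members near the limits were few for S100a8 and S100a9 and many for the granule genes. Between 10% and 12% of UMIs from S100a8 and S100a9 there were 0, 0, 13 and 6 members in TWT, IL6 KO, DKO and TKO, and 0, 0, 14 and 0 cells just below the limit, between 8% and 10%. For Camp, Ngp and Ltf, 56, 61, 109 and 59 members lay between 2% and 2.5%, and 75, 85, 86 and 64 cells between 1.5% and 2%. Exactly 1 UMI of the division genes was found in 148, 217, 217 and 189 members, and 2 UMIs, just outside, in 35, 41, 54 and 37 cells. In the median member S100a8 and S100a9 together made up 36.2% of UMIs in TWT, 35.7% in IL6 KO, 30.3% in DKO and 33.1% in TKO. DKO was lowest by this measure, which the rule used.

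The granule genes were then taken in the order in which the granules form, with levels as CPM over the summed UMIs of all members. A gene was counted as higher or lower in a library when the levels were at least 2-fold apart, with at least 50 CPM in one of them and at least 30 UMIs summed over both. Of the 10 azurophil genes listed, 5 were measured and 3 were higher in DKO than in TWT, which was the case for 6.3% of the 1967 genes measured in that pair (124 genes), while 2.54% were lower (50 genes). The median log2 ratio of DKO to TWT over the 5 was 1.02, against 0.08 over all measured genes. The list also holds genes that do not encode granule proteases, and of the 3 called genes only Prtn3 encodes one. Serpinb1a, an inhibitor of the azurophil proteases, stood at 539 CPM in TWT, 576 in IL6 KO, 1283 in DKO and 631 in TKO, a 2.38-fold difference of DKO from TWT (2.31 to 2.45). Prtn3, proteinase 3, stood at 28.4, 45.6, 58.7 and 24.6 CPM in the same order, and Ms4a3, a membrane protein of granulocyte precursors, at 17.5, 19.4, 52.6 and 16 CPM. DKO was the highest library for each of these 3 genes. The log2 ratio of Prtn3, 1.02, was below 1 in 10 of 13 alternatives and 0.20 without members carrying monocyte or macrophage markers, and in the bands of maturation described below it was 1.40 in the early, 0.10 in the middle and -0.20 in the late band. Only Serpinb1a among them was at least 2-fold more abundant per member than per B cell and per T cell of the DKO library. Mpo, myeloperoxidase, was under the limit of 50 CPM throughout, at 15.2, 18.8, 7.54 and 8.46 CPM.

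Of 15 specific granule genes 13 were measured, 2 were higher in DKO, Orm1 and Chil3, and 1 was lower, Olfm4, with a median log2 ratio of 0.30. Camp, the cathelicidin precursor, stood at 49494 CPM in TWT, 43989 in IL6 KO, 41344 in DKO and 46252 in TKO. Ltf, lactoferrin, stood at 10733, 10971, 8741 and 12396 CPM, and Ngp at 32312, 33030, 35972 and 35744 CPM. These 3 genes were used by the rule, and their DKO to TWT log2 ratios of -0.26, -0.30 and 0.15 are a description. That of Ngp was -0.01 when CPM was taken over genes that each hold under 1% of UMIs. Lcn2, which encodes the siderophore-binding lipocalin 2, stood at 17063, 18548, 23967 and 20836 CPM, a log2 ratio of 0.49 that was not at the 2-fold limit. Chil3, a chitinase-like secreted protein, stood at 4053, 5575, 8428 and 4523 CPM, and Olfm4, olfactomedin 4, which marks a subset of neutrophils, at 617, 422, 285 and 327 CPM. Olfm4 was highest in TWT, and its levels in DKO and TKO were close. The log2 ratio of Chil3, 1.06, was 0.89 with CPM over genes that each hold under 1% of UMIs and 0.90 with the bands weighted equally, and that of Olfm4, -1.11, was -0.97 with Camp, Ngp and Ltf at 5% of UMIs or more, which ends both calls. Of the 10 gelatinase granule genes 7 were measured and 0 were called in either direction, with a median log2 ratio of -0.50. Mmp8, a collagenase, stood at 2374 CPM in TWT, 2490 in IL6 KO, 1273 in DKO and 2648 in TKO. Mmp9, gelatinase B, stood at 2382, 2573, 1563 and 2671 CPM, and Itgam, the alpha chain of the integrin Mac-1, at 720, 755, 438 and 737 CPM. DKO was the lowest library for all 3. All 9 genes of the NADPH oxidase, the enzyme of the respiratory burst, were measured and 0 were called, with a median log2 ratio of 0.27.

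**Figure D2:**
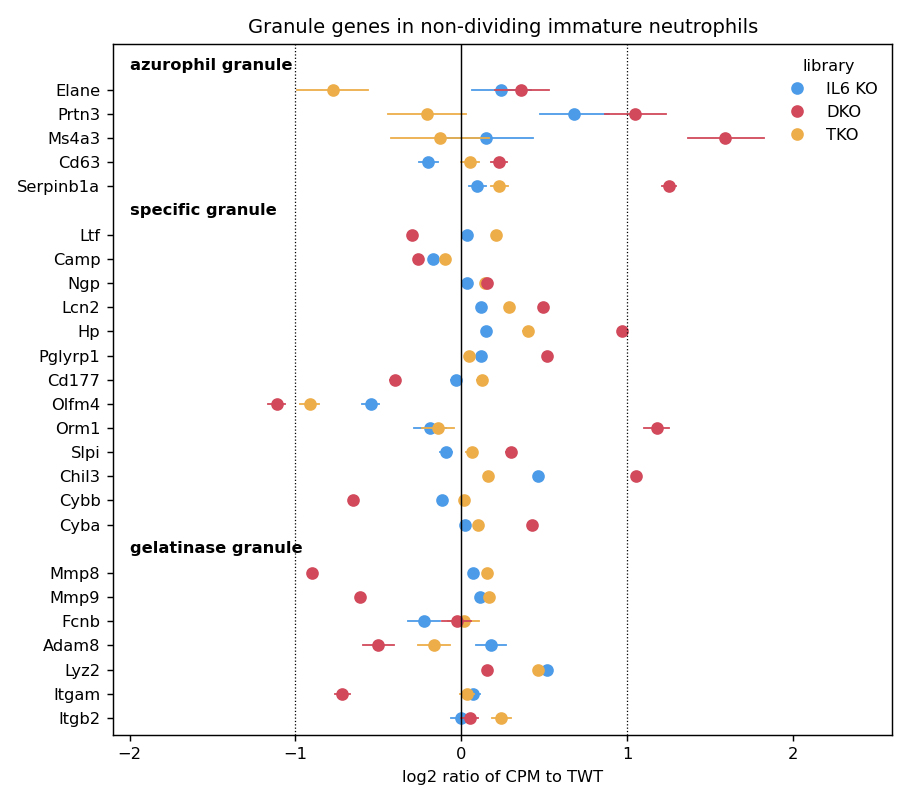
Log2 ratio of CPM in IL6 KO, DKO and TKO to TWT (x axis, without a pseudocount) for the measured azurophil, specific and gelatinase granule genes, 1 point a library, with exact 95% counting intervals and dotted lines at a 2-fold difference. Serpinb1a in DKO at 1.25 lies beyond the upper line, Olfm4 in DKO at -1.11 beyond the lower one, and Mmp8 in DKO at -0.90 inside it.

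Across all genes, DKO members stood apart from each of the other libraries. Against TWT 174 of 1967 measured genes were at least 2-fold apart, or 8.85%, against TKO 155 of 1997, or 7.76%, and against IL6 KO 207 of 1995, or 10.4%. The other pairs differed in fewer genes, 13 of 1865 for TKO and TWT (0.697%), 6 of 1836 for IL6 KO and TWT (0.327%) and 11 of 1876 for TKO and IL6 KO (0.586%). Of the 124 genes higher in DKO than in TWT 81 were also higher by at least 2-fold than in TKO and in IL6 KO, and of the 50 lower genes 31 were lower than in all 3. The split between directions depended on the scale. CPM was also taken over genes that each hold under 1% of UMIs, which leaves 11 genes out. On this scale the median log2 ratio of all measured genes was -0.20, and 122 genes were higher and 186 lower. The 122 are not the same set as the 124, of which 77 were still at least 2-fold higher. This scale moves every ratio of DKO to TWT down by the same factor. That all 50 lower genes were still at least 2-fold lower was therefore fixed in advance.

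Transcripts set free by other cells can be captured with any cell, so the level per member was set beside that per B cell and per T cell of the same library. Of the 124 higher genes, read in DKO, 35 were at least 2-fold more abundant per member than in both lymphocyte classes, 47 lay between, and 42 were at or below both. Of the 50 lower genes, read in TWT, these counts were 31, 16 and 3. Saa3, an acute-phase serum amyloid, had the highest ratio, with 0.28 CPM in TWT, 0 in IL6 KO, 128 in DKO and 0.16 in TKO, or 452-fold between DKO and TWT (155 to 2196, from 3 UMIs in TWT). Per cell it gave 1.18 UMIs in DKO members, 1.63 in B cells and 2.21 in T cells, so the members held no more of it than B or T cells. Apoe, a lipid carrier made by macrophages, stood at 40.5, 21.8, 465 and 26.0 CPM and gave 4.28 UMIs per member, 6.46 per B cell and 4.19 per T cell in DKO. Ctss, cathepsin S, stood at 12.8, 7.76, 137 and 16.8 CPM, and S100a4, a calcium-binding protein, at 13.1, 7.84, 129 and 21.6 CPM, and both lay below B and T cells per cell. The same held for all 20 of the 76 measured cytosolic ribosomal protein genes that were higher in DKO, a list added after the values were seen (median log2 ratio 0.77).

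**Figure D3:**
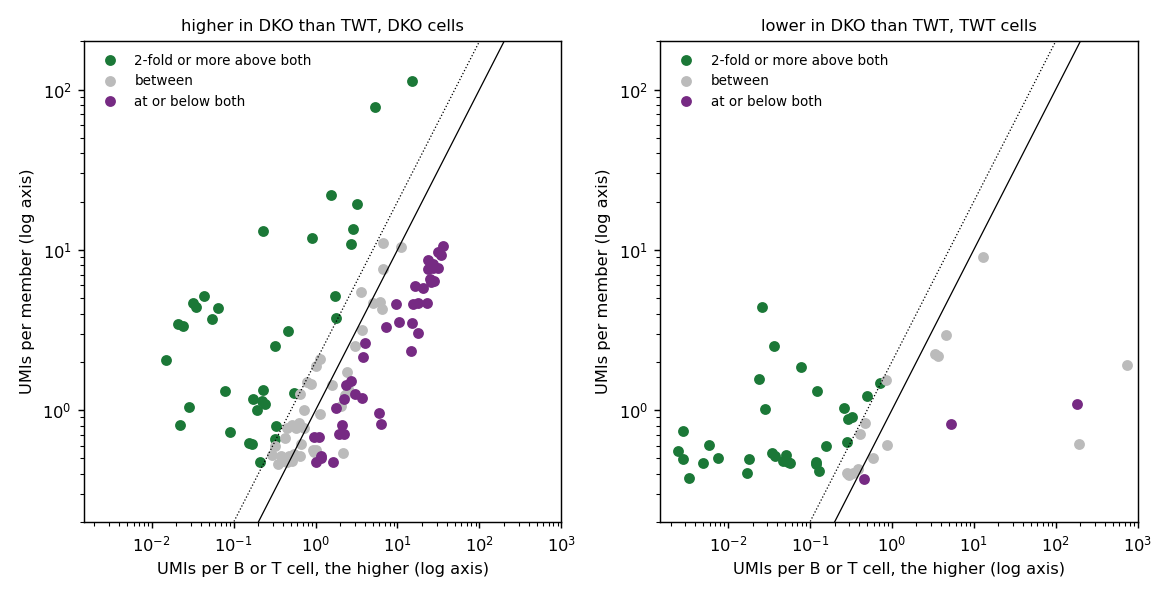
UMIs per member (y axis, log scale) against the higher of the UMIs per B cell and per T cell of the same library (x axis, log scale), for the 124 genes higher in DKO, read in DKO cells, and the 50 lower, read in TWT cells; the solid line marks equal levels, the dotted line a 2-fold higher level in members. Green points, 35 in the first panel and 31 in the second, are 2-fold or more above both lymphocyte classes, and purple points, 42 and 3, are at or below both.

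The genes that were both higher in DKO and well above the lymphocyte level included the stefins, cysteine protease inhibitors of the cystatin family, in a cluster on chromosome 16. Of 10 measured stefin and protease inhibitor genes 6 were higher in DKO and 0 lower, with a median log2 ratio of 1.65. Serpinb1a, also counted in the azurophil list, is among the 6. Stfa1 stood at 58.8 CPM in TWT, 59.9 in IL6 KO, 480 in DKO and 36.3 in TKO, 8.17-fold between DKO and TWT (7.53 to 8.87). Stfa2 stood at 37.7, 16, 376 and 16.9 CPM (9.95-fold, 9 to 11), and Stfa3 at 27.2, 29.0, 224 and 35.3 CPM (8.25-fold, 7.33 to 9.33). BC100530 stood at 32.4, 20.2, 508 and 27.0 CPM and Stfa2l1 at 112, 110, 469 and 91.9 CPM. DKO was alone in being high for all 5 genes, while the other libraries lay within 3-fold of each other. DKO B cells held 0.02 UMIs per cell of Stfa1 and DKO members 4.42. The last 300 bases of the longest transcripts of Stfa1 and BC100530 were 98.7% identical, so the split of reads between these 2 genes is uncertain, and the other pairs were 60.9% to 80.5% identical.

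The windows of 150 bases before Stfa3, chr16:36455393-36455542 on the minus strand, and Stfa2l1, chr16:36156661-36156810 on the plus strand, are shown because these genes lie at the ends of the cluster and moved together. Both are RefSeq sequence of GRCm38.p6, and capitals mark the longest run the windows share, of 14 bases.
Stfa3: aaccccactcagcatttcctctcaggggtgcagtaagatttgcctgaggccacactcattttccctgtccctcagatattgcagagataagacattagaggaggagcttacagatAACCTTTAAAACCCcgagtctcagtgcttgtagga
Stfa2l1: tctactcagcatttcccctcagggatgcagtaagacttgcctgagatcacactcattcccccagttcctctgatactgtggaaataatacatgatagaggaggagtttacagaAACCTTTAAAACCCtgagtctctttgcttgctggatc
Neither window held the C/EBP letters or the STAT letters TTCNNNGAA on either strand. Of the 94 higher genes with a window 7 held the C/EBP letters (7.45%) and 6 the STAT letters (6.38%), beside 6.31% and 4.77% of all genes with a window. Of the 35 lower genes with a window 1 held the C/EBP letters and 0 the STAT letters.

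Asprv1, which encodes a retroviral-like aspartic protease, lies on chromosome 6 at 86628164 to 86629710. It stood at 38.9 CPM in TWT, 51.9 in IL6 KO, 557 in DKO and 83.4 in TKO, 14.3-fold between DKO and TWT (13 to 15.9). TKO was the next highest, at a log2 ratio to TWT of 1.08. Cd14, the co-receptor for bacterial lipopolysaccharide, stood at 4.91, 3.92, 274 and 57.6 CPM, 55.9-fold between DKO and TWT (42.6 to 74.9). Its order was DKO, then TKO, then the 2 libraries with intact mDia1 and miR146a. DKO members held 2.52 UMIs of Cd14 per cell, against 0.32 in B cells and 0.22 in T cells. Without members carrying at least 2 UMIs of the monocyte and macrophage markers the log2 ratios were 3.80 for Asprv1 (3.81 with them) and 5.54 for Cd14 (5.54). That of Saa3 went from 6.65 to 4.73, and that of Apoe, itself one of the markers, from 3.49 to 2.13. Of the 35 genes above both lymphocyte classes 33 were still at least 2-fold higher without those members, and of all 124 genes 80 were. The 35 were called and set beside lymphocytes in the same DKO library, where they are high, so these counts are a description.

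Secreted proteins induced in inflammation were listed after the values were seen. Of 7 measured members 4 were higher in DKO, with a median log2 ratio of 1.06. Besides Saa3 and Chil3 these were Orm1, an acid glycoprotein, at 162 CPM in TWT, 142 in IL6 KO, 366 in DKO and 147 in TKO, and Lrg1, a leucine-rich glycoprotein, at 613, 655, 1417 and 815 CPM. Hp, haptoglobin, stood at 1640, 1822, 3205 and 2167 CPM and was not called at 1.95-fold. DKO was highest for all 3, and DKO B cells held 0.02 UMIs of Orm1 per cell against 3.37 in members. Il1rn, the interleukin-1 receptor antagonist, stood at 35.8, 40.6, 9.34 and 41.5 CPM, under the limit for a call.

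Among regulators and surface genes, 10 of 22 lineage transcription factors were measured and 2 were higher in DKO, with a median log2 ratio of 0.11. Cebpb, the C/EBP factor of emergency granulopoiesis, stood at 131 CPM in TWT, 192 in IL6 KO, 560 in DKO and 113 in TKO, and Klf2 at 223, 202, 822 and 341 CPM. Cebpb was at least 2-fold above both lymphocyte classes per cell, and Klf2, at 7.57 UMIs per DKO member, was above B cells (6.57) and T cells (2.46) by less than 2-fold at the nearer. Cebpe, the factor of secondary granule genes, stood at 368, 431, 404 and 434 CPM, and Spi1, which encodes PU.1, at 444, 508, 786 and 554 CPM, neither of them called. Of 6 measured S100 genes 2 were higher, S100a4 and S100a6, with a median log2 ratio of 0.07, and S100a6 stood at 5422, 4456, 12298 and 5324 CPM. Of 5 measured genes of lipid mediators 2 were higher (median 0.42), Alox5ap, the partner of 5-lipoxygenase in leukotriene synthesis, at 1022, 1096, 2394 and 1211 CPM, and Pla2g7, which degrades platelet-activating factor, at 5.38, 5.31, 64.5 and 5.35 CPM. Alox5ap and S100a6 were above both lymphocyte classes and Pla2g7 lay under the 2-fold limit. Of 16 measured late maturation genes 5 were higher and 0 lower (median 0.13), among them Ifitm1 at 34.9, 33.1, 128 and 39.3 CPM and Ifitm2 at 578, 459, 1475 and 631 CPM, membrane proteins that restrict viral entry.

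The pathways that the deleted genes belong to were measured in part. Of 22 IL-6 and STAT3 genes 9 were measured and 2 were higher in DKO, Saa3 and Lrg1, with a median log2 ratio of 0.75. Stat3 itself stood at 147 CPM in TWT, 147 in IL6 KO, 106 in DKO and 150 in TKO, and Socs3, its feedback inhibitor, at 4.06, 4.74, 24.8 and 6.30 CPM, under the limit. Il6ra, the receptor chain, stood at 47.3, 56.0, 49.6 and 49.2 CPM, and Stat3, Socs3 and Il6ra were named after their values were seen. Of 25 Toll-like receptor genes and miR-146a targets 6 were measured and 2 were higher, Cd14 and Nfkbia, with a median log2 ratio of -0.43. Nfkbia, the inhibitor of NF-kappaB, stood at 163, 144, 409 and 176 CPM. The direct targets Irak1 and Traf6, also named afterwards, were under the limit, at 31.4, 23.4, 21.3 and 28.2 CPM and at 6.79, 5.80, 6.03 and 7.02 CPM. In the 29 measured actin and formin genes 0 were higher and 2 lower, Diaph1 and Fmnl2, another formin, at 52.6, 58.7, 21.4 and 50.5 CPM (median 0.07).

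The remaining lists were read in the same way. In DKO against TWT, interleukin-1 and inflammasome genes gave 1 higher of 3 measured (median 0.77), Il1r2, the decoy receptor, at 54.3, 64.1, 114 and 52.4 CPM, whose log2 ratio of 1.05 was 0.89 with CPM over genes that each hold under 1% of UMIs. MHC class I genes gave 1 higher of 11 (0.15), H2-D1, whose log2 ratio of 1.02 was below 1 in 8 of 13 alternatives. Trafficking and cytokine receptors gave 2 higher and 1 lower of 20 (0.05). Csf1r, the receptor of monocytes and macrophages, was one of the higher, at 6.70, 5.72, 52.0 and 7.90 CPM. Its log2 ratio of 2.78 became -0.36 once members with monocyte or macrophage markers, Csf1r among them, were left out. The other higher gene, Ifngr1, had a log2 ratio of 1.715 that was 0.78 without those members. It gave 1.35 UMIs per DKO member, 0.96 per B cell and 2.47 per T cell. Fc and paired receptors gave 2 higher of 16 (0.33), Clec4e and Cd300a. Their log2 ratios of 1.041 and 1.035 were 0.79 and 0.35 without members carrying monocyte or macrophage markers. Ly6 and MS4A proteins gave 3 of 6 (0.73), Ly6e, Ms4a3 and Ms4a6c. None of these was at least 2-fold above both lymphocyte classes per cell. The log2 ratio of Ms4a6c, itself one of the monocyte markers, went from 2.595 to 0.84 without those members. Iron handling gave 1 of 5 (0.70), Hmox1, and myeloid suppressor cell genes 1 of 4 (0.31). Early pre-neutrophil genes (10 measured, 0.31), glycolysis and HIF-1 genes (13, 0.39) and apoptosis genes (4, -0.37) gave 0 calls. Genes known to respond to tissue dissociation gave 4 higher of 11 (0.67), with Jun, an AP-1 subunit, at 8.40, 10.4, 162 and 18.7 CPM and 1.49 UMIs per DKO member against 0.78 per B cell. Whether handling of the DKO marrow took part in these values was not tested.

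**Figure D4:**
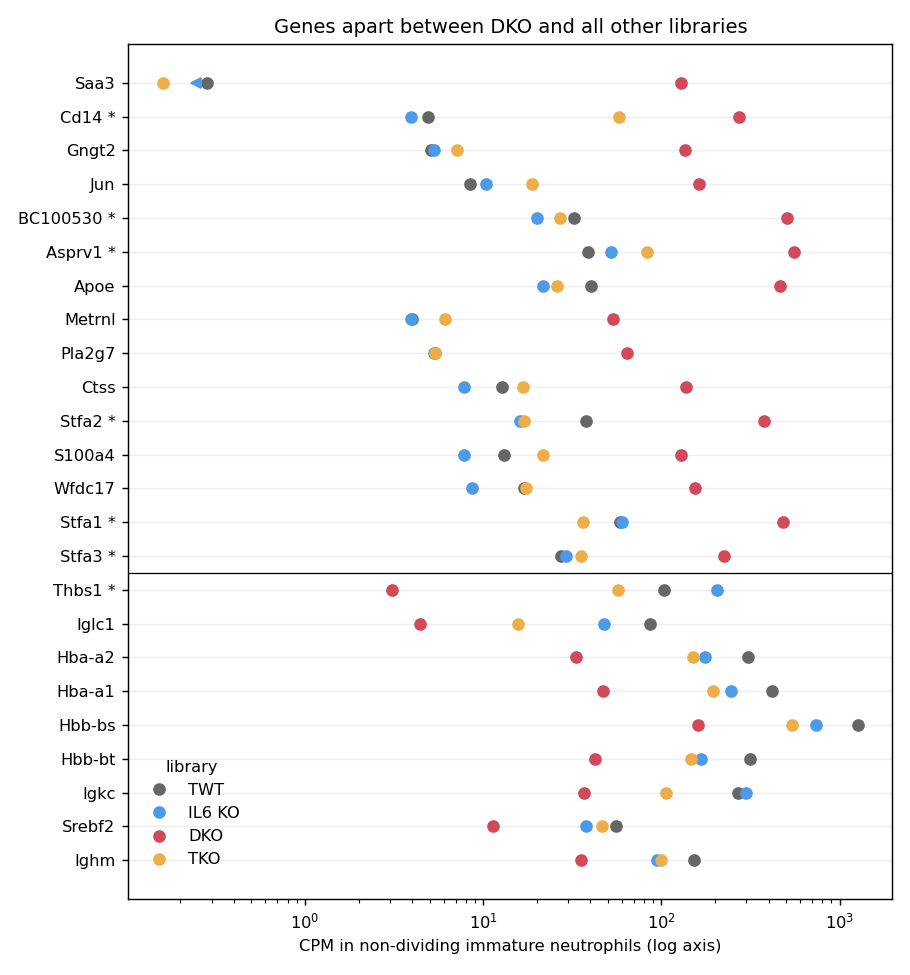
Level in CPM of the members of each library (x axis, log scale), 1 point a library, for genes named among the highest and lowest in DKO of those apart from all other libraries. An asterisk marks genes at least 2-fold above B and T cells per cell and a triangle 0 UMIs, drawn at the 3-count floor; Cd14 in TKO (57.6 CPM) lies between DKO and the other 2 libraries.

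The genes lower in DKO were led by Thbs1, which encodes the matrix glycoprotein thrombospondin 1, on chromosome 2 at 118111876 to 118127133. It stood at 104 CPM in TWT, 205 in IL6 KO, 3.06 in DKO and 57.3 in TKO, and DKO was 33.9-fold below TWT. TWT B cells held 0.002 UMIs of it per cell and TWT members 0.742. Sterol genes were looked at after the values were seen. Srebf2, the regulator of sterol synthesis, stood at 55.3, 37.8, 11.4 and 46.4 CPM, and Msmo1, a sterol oxidase, at 67.0, 55.1, 32.5 and 69.0 CPM. The log2 ratio of Msmo1, -1.02, was nearer to 0 than -1 in 3 of 13 alternatives, at -0.96 in the smallest. Hmgcs1, an enzyme of the mevalonate pathway, was under the limit of measurement at 46.1, 21.2, 11.6 and 35.0 CPM. DKO was lowest for these 3 genes and IL6 KO was the next. Cxcr4, the receptor that holds neutrophils in the marrow, stood at 171, 171, 77.0 and 211 CPM, and Igf1r, the IGF-1 receptor, at 186, 196, 89.0 and 168 CPM, with a log2 ratio of -1.05 that was -0.96 after thinning. Hemoglobin and immunoglobulin transcripts were also lower over all members, Hbb-bs at 1264, 738, 162 and 544 CPM and Igkc at 270, 297, 36.7 and 107 CPM. The log2 ratio of Hbb-bs, -2.96, was -5.75 with Camp, Ngp and Ltf at 5% of UMIs or more. It was -1.45, nearest to 0, without members carrying markers of other lineages, a list that holds Hbb-bs. TWT members held 9.01 UMIs of Hbb-bs per cell, B cells 12.8 and T cells 0.61, and of Igkc members held 1.93, B cells 737 and T cells 1.45. The part of transcripts from red cell precursors and B cells in these values was not tested.

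Members were also placed along maturation by the percentage of UMIs from 9 early genes among those from 9 early and 9 late genes, after thinning to 3000 UMIs. The bands early, middle and late were cut so that TWT members fell into 3 bands of equal size, and they are ranges of a score, not cell types. In TWT 33.4% of members were early, in IL6 KO 33.6%, in DKO 41.5% (39.4 to 43.6) and in TKO 32.7%. The late band held 33.4%, 30.9%, 22.8% (21.0 to 24.6) and 32.4% in the same order. Within 2 points of a limit lay 95, 130, 171 and 128 members. Chil3, Mmp8, Ms4a3, Ccl6 and Stfa2l1 are among the 18 genes scored and differ between the libraries themselves, so the shift of the bands is not independent of their levels.

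Levels of genes outside the score were then read in each band. Asprv1 stood at 8.39 CPM in TWT and 228 in DKO in the early band, at 26.5 and 668 in the middle band and at 96.6 and 1240 in the late band. The early DKO band was thus above the late TWT band. Stfa1 stood at 136 CPM in the late TWT band and at 360 in the early DKO band. Cd14 had log2 ratios of 5.38, 5.68 and 5.87 from early to late, and Thbs1 of -3.55, -4.86 and -4.79. S100a6 stood at 2175 CPM in TWT and 8536 in DKO in the early band, at 5359 and 13814 in the middle band and at 10166 and 19636 in the late band. Camp stood at 66662 CPM in TWT and 57348 in DKO in the early band, at 50144 and 33715 in the middle band, and at 24188 and 12789 in the late band, at log2 ratios of -0.22, -0.57 and -0.92 that are under 2-fold and belong to a gene of the rule. Hbb-bs was lower in DKO in the early band (1108 and 19.6 CPM) and the middle band (1856 and 27.4 CPM) but not in the late band (798 and 825 CPM). With the 3 bands given equal weight 34 of the 35 genes above both lymphocyte classes were still at least 2-fold higher. Fewer of them, 26 of the 35, were so with CPM over genes that each hold under 1% of UMIs. The 35 were chosen by their DKO values, so these counts too are a description.

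**Figure D5:**
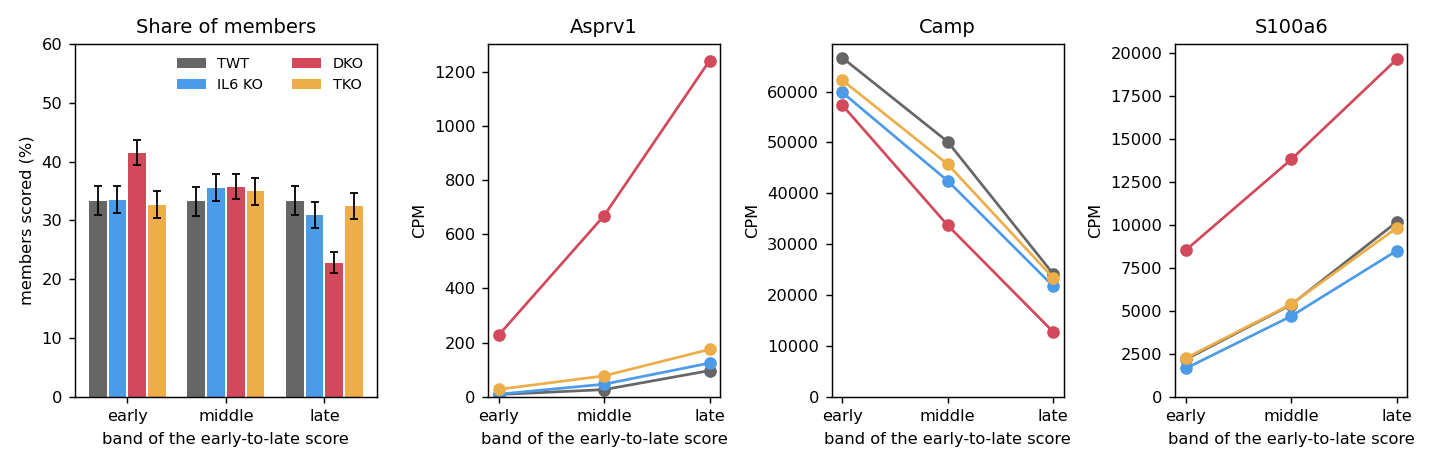
Share of scored members in the early, middle and late bands with exact 95% counting intervals (first panel, percent), and levels of Asprv1, Camp and S100a6 in each band (other panels, CPM on linear axes), 1 color a library. DKO is highest in every band for Asprv1 (228 to 1240 CPM) and S100a6 and lowest for Camp, which declines from early to late in all 4 libraries.

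The neighboring neutrophils were read for the same genes. Asprv1 stood at 5.87 CPM in the dividing immature cells of TWT and 74.3 in those of DKO, and at 306 and 1762 CPM in neutrophils with Camp, Ngp and Ltf below the limit. Stfa3 stood at 1.82 and 38.9 CPM in dividing cells and at 97.5 and 376 CPM in the later ones. Orm1 stood at 213 and 547 CPM in dividing cells and at 1.38 and 30.4 CPM in the later ones. Asprv1 and Stfa3 were highest in the later cells and Orm1 in the dividing cells, in both libraries. 

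TKO, by its labels, has the DKO genotype with IL6-/- in place of IL6+/+. The libraries also come from different mice and captures, so the part of IL-6 was not tested. TKO members differed from TWT in few genes, with 4 genes higher and 9 lower among the 13 called. Higher were Cd14, Asprv1, whose log2 ratio of 1.08 was 0.75 with Camp, Ngp and Ltf at 1% of UMIs or more, Oas3, a sensor of double-stranded RNA, at 29.7 CPM in TWT and 62.8 in TKO (a log2 ratio of 1.05, and 0.99 without members carrying monocyte or macrophage markers), and Ifi27l2a, an interferon-induced gene, at 19.3 and 71.5 CPM. Diaph1 was lower, and so were hemoglobin, immunoglobulin and other genes, with Iglc1 at 86.6 and 15.6 CPM. IL6 KO members differed from TWT in 6 genes, of which Xist was one. Clec4d, a C-type lectin, stood at 23.6 CPM in TWT and 57.8 in IL6 KO.

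The loss of mDia1 and miR-146a can be read in 2 pairs that share no library, as DKO against TWT where IL-6 is present and as TKO against IL6 KO where it is absent. Of the 124 genes higher in DKO 67 were also measured in the second pair, and the rest did not reach its limits. Among the 67, 1 gene, Cd14, was higher in TKO than in IL6 KO and 0 were lower. Of 47 lower genes measured there 3 were lower, Diaph1, Thbs1 and Igkc. Over all 1876 genes measured in the second pair 3 (0.16%) were higher and 8 (0.426%) lower. Xist also sets IL6 KO apart from TKO, so differences in this pair cannot be told apart from those of sex. The median log2 ratio of the 67 was 1.26 in the first pair and 0.16 in the second, beside 0.05 over all genes measured in the second. The lower genes had medians of -1.14 and -0.05. The genes were chosen in the first pair, so its medians are a description, and the difference between the pairs was not tested.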

How the data were processed

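Bone marrow cells of 4 mouse genotypes, 1 library each, were captured in droplets with 10x 3′ chemistry. The deposited files hold raw UMI counts per gene and barcode for 31053 genes, made by the authors with Cell Ranger (version 3.0.2 in the file headers) on mm10 per the labels, which also name Seurat 4. The labels give an age of 12 months. Members and gene lists were chosen with earlier results of these data known. Counts of members were summed per library and scaled to 1000000 per library (CPM). A gene was measured at 50 CPM or more in either library and 30 UMIs or more summed over both, and called at 2-fold. Log2 ratios used a pseudocount of 1 CPM. With 1 library per genotype no p-value was computed. Count ratios have exact binomial 95% intervals, shares Clopper-Pearson ones and counts exact Poisson ones, all for counting error only, and a count of 0 was given a floor of 3 counts. B cells had at least 3 UMIs of Cd79a and Cd79b, T cells at least 2 of Cd3 genes. Genes named were the 15 highest and 10 lowest in DKO against all 3 libraries, the 5 highest and 5 lowest of TKO and IL6 KO against TWT, the granule genes and up to 4 per list, from 24 lists and 3 added later. Genes outside this rule were named after their values were seen: Irak1, Traf6, Stat3, Il6ra, Socs3, Msmo1, Hmgcs1, Il1rn, Igf1r, Lgals3, Upp1, Gm5483, Ncam1 and Ffar2. Some genes that this rule names are not reported here. Doublets were kept. Scrublet called 2.14% to 2.37% of kept cells and 3.70% to 4.32% of members. Alternatives covered each limit of the rule, depth, doublets, other scales and gene limits. Computations were tested on simulated data. Analysis used Python 3.11.15, numpy 2.4.6, scipy 1.17.1, pandas 2.3.3 and scanpy 1.11.5.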

Additional observations from a re-analysis of the deposited data

Results flagged for a closer look

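For 4 genes the DKO library was above TWT while TKO was below IL6 KO, and the difference between these ratios was not tested. The log2 ratio of DKO to TWT was 3.01 for Stfa1 and that of TKO to IL6 KO was -0.71. For Cebpb the ratios were 2.09 and -0.76, for Clec4e, the receptor Mincle, 1.04 and -0.69, and for Ccl6, a chemokine, 1.01 and -0.74. The ratio of Clec4e in DKO to TWT was 0.79 and that of Ccl6 0.34 without members that carry monocyte or macrophage markers, and reads of Stfa1 may be shared with BC100530.

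Barcodes above the limit of 4000 genes were not among the members and entered 1 alternative. Of these, 29 in DKO met the composition rule, against 5 in TWT, 2 in IL6 KO and 0 in TKO. They made up 0.267% of DKO barcodes.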

How the results depend on the processing

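Of 113 values of 7 main results under 16 planned and 3 later alternatives 77 kept their size, which for a count means within 1.5 times. Genes higher in DKO than in TWT (124) numbered 77 with S100a8 and S100a9 at 20% of UMIs or more, 319 at 10 CPM, 56 at 200 CPM, 38 at 3-fold, 66 without members carrying monocyte or macrophage markers, and 35 among genes 2-fold above B and T cells. Genes lower (50) numbered 186 with CPM over genes each under 1% of UMIs, 195 at 10 CPM, 11 at 200 CPM, 13 at 3-fold and 31 above B and T cells. For DKO and TKO (155) the counts were 265 with CPM over genes each under 1%, 476 at 10 CPM, 53 at 200 CPM, 46 at 3-fold, 101 without members carrying monocyte or macrophage markers and 66 above B and T cells. For TKO and TWT (13) they were 25, 47, 6, 4, 7 and 4 under these 6 settings, 7 with the mean CPM of each cell and 6 without globin, immunoglobulin and MHC class II genes. For IL6 KO and TWT (6) they were 16 with CPM over genes each under 1%, 40 at 10 CPM, 0 at 200 CPM, 1 at 3-fold, 3 above B and T cells and 10 with no UMI of the division genes. The ratio of the DKO to the TWT share (1.03) was 0.948 with S100a8 and S100a9 at 20% and 1.12 with 200 genes and no upper limit. It was 0.691 without members carrying monocyte or macrophage markers. It was 1.66 without members carrying markers of other lineages, a list that holds hemoglobin genes. The early band in DKO (41.5%) was 44.6% under the last of these. Csf1r reversed, to a log2 ratio of -0.36, without members carrying monocyte or macrophage markers, a list that holds Csf1r. The cause of the other changes was not tested. The settings added after seeing the data were the removal of those members, that of globin, immunoglobulin and MHC class II genes, and the limit to genes above B and T cells. No paired analysis was possible because each genotype has 1 library, and none could be left out in turn. Genes under 50 CPM in both libraries, Irak1 and Traf6 among them, were given as values and not called.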

Other observations

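Further genes at least 2-fold above B and T cells per cell were chosen after their values were seen. Lgals3, which encodes the lectin galectin-3, stood at 857 CPM in TWT, 834 in IL6 KO, 2111 in DKO and 1028 in TKO. Upp1, uridine phosphorylase, stood at 21.5, 27.5, 88.0 and 32 CPM, and Gm5483, a stefin-like gene, at 87.9, 54.9, 401 and 52.1 CPM. DKO was the highest library for all 3. Lower in DKO were Ncam1, an adhesion molecule, at 85.0, 85.6, 31.2 and 68.8 CPM, and Ffar2, a receptor for short-chain fatty acids, at 77.7, 75.9, 32.8 and 77.4 CPM. TKO lay nearer to TWT than to DKO for each of the 5 genes.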
